A study of Mus musculus with 23 samples.

Results

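TRBV19 is a variable segment of the mouse T cell receptor beta chain and is called Vbeta6 in the older nomenclature. Its chains were chosen by the V name that the clonotype caller gave each row of the deposited table, so the V name and the germline-encoded start of the chain are not findings here. A clonotype is a distinct CDR3 protein sequence together with its V and J. Of 35389 TRB clonotypes listed in any of 23 libraries, 3847 carried TRBV19. The other 31542 were spread over 23 TRBV segments.

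The libraries come from syngeneic melanomas in mice, of the Nras Q61R line NIL, to which mutations had been added by ultraviolet light. Every group carries that 1 line. The labels name the tissue as the melanoma cell line, and since only receptor chains were sequenced, no marker of tumour or T cells was there to check it. The control groups received no drug (3 libraries at D4 and 2 at D11). The other groups received trametinib, an inhibitor of the kinase MEK, or BGB-283, an inhibitor of RAF kinases, or both drugs (the combination), with 3 libraries each at D4 and at D11. Receptor transcripts were amplified from total RNA, so fewer T cells of a clone and less receptor RNA per cell cannot be told apart. No source used here says whether each library is a mouse of its own, so p-values measure the spread between libraries, which may be technical. TRB counts ran from 32534 to 320420 per library. By treatment they were 32534 to 186652 in control, 59029 to 193649 in trametinib, 65577 to 223264 in BGB-283 and 151348 to 320420 in combination libraries.

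A beta chain is assembled in the thymus by joining a V, a D and a J segment. The CDR3 loop lies across these joins and contacts the peptide, while the V segment supplies the loops that mostly meet the MHC molecule. Superantigens bind the V segment itself: Vbeta6 is known for its response to Mls-1a, a superantigen of an endogenous mouse mammary tumour virus, which in strains that carry it deletes most Vbeta6 T cells. In other strains Vbeta6 is one of the common beta segments of the repertoire.

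The following CDR3 are shown because the results turn on them. The first 5 are the largest TRBV19 clonotypes of single libraries, and the other 4 are among the 6 listed in most libraries. Each runs from the conserved cysteine to the phenylalanine of the J segment.
Combination D11 replicate 3, TRBJ1-1: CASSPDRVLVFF
BGB-283 D11 replicate 1, TRBJ1-4: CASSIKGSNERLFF
BGB-283 D4 replicate 1, TRBJ2-7: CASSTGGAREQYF
BGB-283 D11 replicate 3, TRBJ2-5: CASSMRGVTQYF
Control D11 replicate 2, TRBJ1-1: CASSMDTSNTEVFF
13 libraries, TRBJ2-4: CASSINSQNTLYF
8 libraries, TRBJ2-7: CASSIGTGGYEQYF
6 libraries, TRBJ2-7: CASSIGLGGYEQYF
6 libraries, TRBJ2-1: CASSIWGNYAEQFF
The remaining pair, each in 6 libraries with TRBJ2-7, differ from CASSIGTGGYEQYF only at the fifth and ninth residues. They are called the Thr/Gly chain and the Ser/Ala chain here, after those residues in that order, and chains of the same frame are named alike below.

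The start of the CDR3 is largely encoded by the V segment that chose these chains, so it is given as a description and no check of the V name. CASSI opened 36.4% of TRBV19 clonotypes and 0.380% of all other TRB clonotypes, and in no other segment did it open more than the 1.17% of TRBV17. The share of CASSI starts was 37.4% ± 6.06 per library (SD, n = 23), and it was lowest in control D11 replicate 1 (27.6%) and highest in control D4 replicate 2 (58.1%), which hold 29 and 31 TRBV19 clonotypes. CASSM was the start of 7.23% of TRBV19 clonotypes against 0.117% of the others. CASSL, the commonest start elsewhere at 25.4%, opened 2.96% of TRBV19 chains. CASSP (10.8% against 10.2%) was alike in both.

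TRBV19 took 11.03% ± 8.65 of TRB counts and 11.4% ± 2.44 of TRB clonotypes (SD, n = 23), the third place among 24 TRBV segments by both means. TRBV16 (20.1% of counts) and TRBV3 (11.6%) stood above it by counts. TRBV16 (15.5% of clonotypes) and TRBV29 (13.1%) stood above it by clonotypes. By counts TRBV19 was first in 4 libraries and at rank 10 at the lowest, while by clonotypes it was never below the fifth place.

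In the control libraries, TRBV19 held 5.59%, 2.49% and 4.83% of TRB counts at D4 and 4.88% and 10.8% at D11. With trametinib it held 9.02%, 10.6% and 12.4% at D4 and 4.18%, 8.06% and 12.3% at D11. With BGB-283 it held 17.8%, 9.89% and 11.4% at D4 and 30.7%, 8.86% and 9.58% at D11. All BGB-283 libraries lay above 4 of the 5 control libraries, and their lowest values lay below the highest control. In the combination libraries the values were 3.89%, 12.3% and 5.84% at D4 and 11.1%, 6.63% and 40.5% at D11. They therefore covered nearly the whole range of the study, from below most controls to the highest library of all. The 95% Wilson intervals of these shares were 0.0782 to 0.353 percentage points to either side, which covers counting error only and is far below the spread between libraries.

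By group means, the order was combination D11 (19.4% ± 18.4, SD, n = 3), BGB-283 D11 (16.4% ± 12.4), BGB-283 D4 (13.0% ± 4.19), trametinib D4 (10.7% ± 1.70), trametinib D11 (8.19% ± 4.08), control D11 (7.82% ± 4.15, n = 2), combination D4 (7.36% ± 4.42) and control D4 (4.30% ± 1.62). Every neighbouring pair of groups in that order overlapped.

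No contrast of the share of counts passed the test. In edgeR's quasi-likelihood test over all TRBV segments, BGB-283 against control gave a log2 difference of 1.33 (SE 0.54), with an adjusted p of 0.261. The combination against control gave 1.04 (SE 0.53, adjusted p = 0.518) and trametinib against control 0.69 (SE 0.52, adjusted p = 0.635) in edgeR. The combination against trametinib (0.35, SE 0.49) and against BGB-283 (-0.29, SE 0.49) had adjusted p-values of 0.933 and 0.780, and D11 against D4 (0.55, SE 0.35) had 0.448. The background was the same: edgeR called 0 of 24 segments, or 0%, in each of the 6 contrasts, with 0 to 4 segments a contrast at an unadjusted p under 0.05 and 0 to 3 called by DESeq2. TRBV19 was not among those that DESeq2 called.

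**Figure D1:**
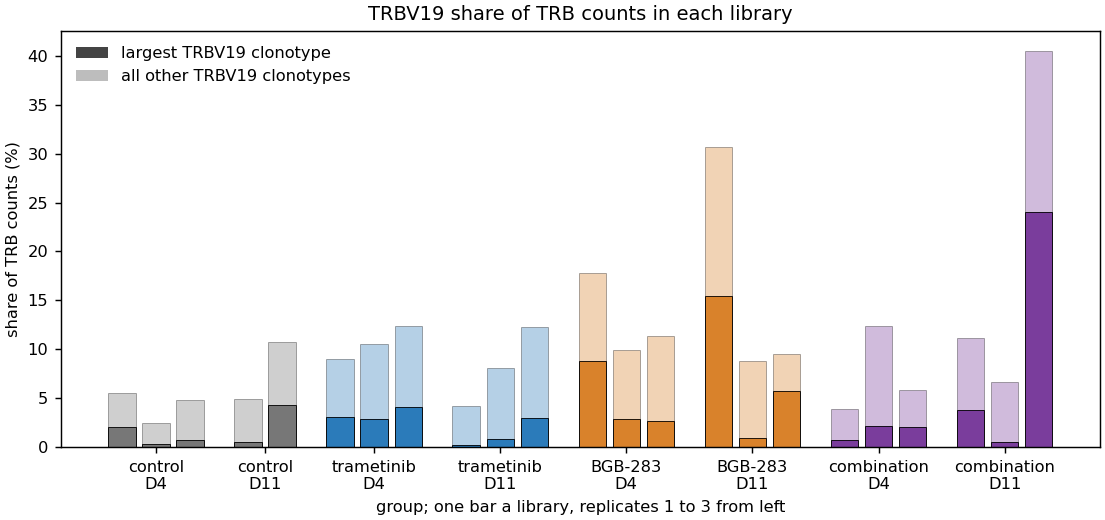
Bars give the TRBV19 share of TRB counts (%) in each of 23 libraries, grouped by treatment and day, with the dark part being the largest TRBV19 clonotype and the pale part all others. The tallest bars, combination D11 replicate 3 (40.5%) and BGB-283 D11 replicate 1 (30.7%), both have a dark part of over 15% of TRB counts.

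The 3 libraries with the highest share of counts held 1 or a few very large TRBV19 clones. The chain ending in RVLVFF alone took 24.1% of all TRB counts of the third combination D11 library, and a TRBJ2-1 chain there, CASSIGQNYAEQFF, took 8.02%. In BGB-283 D11 replicate 1, the leading TRBJ1-4 chain took 15.5% and a TRBJ2-7 chain, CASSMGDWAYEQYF, took 9.84%. The leading chain of BGB-283 D4 replicate 1 took 8.83%. Large leaders also occurred at lower shares: 5.77% in BGB-283 D11 replicate 3, where TRBV19 held 9.58%, and 4.30% in control D11 replicate 2, where it held 10.8%. Combination D4 replicate 2 and trametinib D11 replicate 3 each held 12.3% with smaller leaders, of 2.23% and 2.95%. In 3 libraries (combination D11 replicate 3 and BGB-283 replicate 1 at both days) the first TRBV19 clonotype was also the largest of all TRB clonotypes, and in 13 of 23 it was among the 5 largest.

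Of the 23 leading clonotypes, 15 were listed in 1 library only. In the remaining 8 libraries the leader was a clonotype also listed elsewhere. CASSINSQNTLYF, for example, led in BGB-283 D4 replicate 3 (2.73% of TRB counts) and in trametinib D11 replicate 1 (0.229%). In trametinib D4 replicate 3 it was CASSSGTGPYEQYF (4.08%), in trametinib D11 replicate 3 the Ser/Gly chain (2.95%), in combination D4 replicate 3 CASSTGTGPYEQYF (2.05%) and in trametinib D11 replicate 2 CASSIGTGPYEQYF (0.800%). These 4 share the residues GTG and the ending YEQYF, as does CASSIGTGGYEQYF, the leader of control D4 replicate 3 (0.756%). Control D11 replicate 1 was led by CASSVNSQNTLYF (0.541%). Another 5 leaders have CDR3 of 15 or 16 residues, among them the TRBJ1-4 chain of trametinib D4 replicate 1 (3.05%) and the TRBJ2-7 chain of combination D11 replicate 1 (3.81%). At the low end, control D4 replicate 2 was led by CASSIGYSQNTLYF (0.301%) and combination D11 replicate 2 by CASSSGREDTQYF (0.561%).

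Clonotypes of 1% or more of a library's TRB counts numbered 274 over all segments, and 29 of them (10.6%) used TRBV19. By treatment they were 3 of 74 in control, 6 of 60 in trametinib, 11 of 69 in BGB-283 and 9 of 71 in combination libraries. The 29 entries were 27 different clonotypes in 15 libraries, and 9 of the 29 began with CASSI, 5 with CASST and 4 with CASSM.

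The largest clonotype held 28.1% ± 16.2 of TRBV19 counts per library (SD, n = 23), from 5.47% in trametinib D11 replicate 1 to 60.2% in BGB-283 D11 replicate 3. It was 23.03% ± 13.99 in the 5 control libraries and 22.1% ± 11.9 with trametinib, 37.3% ± 19.02 with BGB-283 and 29.2% ± 17.99 with the combination (SD, n = 6 each). Against control, BGB-283 was 13.9 percentage points higher (exact two-sided permutation test within day, p = 0.255, adjusted p = 0.915 over 6 contrasts). None of the other 5 contrasts passed, with exact adjusted p-values of 0.915 to 0.938. The number of clonotypes that made up 50% of TRBV19 counts ran from 1 to 30, with a median of 6.

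The largest TRBV19 clonotype was then taken out of both the TRBV19 and the TRB counts of each library. TRBV19 still held 21.6% of the remaining TRB counts of combination D11 replicate 3. In BGB-283 D11 replicate 1 it held 17.99% of them, where no control exceeded 6.74%. Only the largest clone was taken out, so other large clones stayed in. These include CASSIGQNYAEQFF in the former library and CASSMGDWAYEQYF in the latter, with 8.02% and 9.84% of all TRB counts. By this measure BGB-283 libraries held 9.33% ± 4.68, combination libraries 8.78% ± 6.80, trametinib libraries 7.29% ± 2.02 and control libraries 4.21% ± 1.64 (SD). This was not tested.

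Counting each clonotype once takes out the counts of a large clone, though not the small near-identical chains that are listed beside some large clones. TRBV19 made up 9.81%, 7.45% and 13.1% of TRB clonotypes in control D4 and 9.73% and 8.95% in control D11. With trametinib it made up 10.6%, 10.3% and 11.04% at D4 and 8.48%, 10.2% and 9.72% at D11, so those libraries lay within the range of the controls. With BGB-283 it made up 13.6%, 14.3% and 11.2% at D4 and 16.5%, 13.5% and 13.4% at D11. Of these 6 libraries, 5 lay above every control library, and BGB-283 D4 replicate 3 did not. The combination gave 9.43%, 10.5% and 10.4% at D4 and 12.6%, 10.2% and 16.9% at D11, of which only combination D11 replicate 3 lay above every control. The intervals are wider here, from 0.837 to 4.01 percentage points to either side (95% Wilson), and widest in control D4 replicate 1, with 21 TRBV19 clonotypes among 214.

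The order of group means was BGB-283 D11 (14.5% ± 1.77), combination D11 (13.3% ± 3.40), BGB-283 D4 (13.0% ± 1.65), trametinib D4 (10.7% ± 0.371), control D4 (10.1% ± 2.82), combination D4 (10.1% ± 0.593), trametinib D11 (9.47% ± 0.890) and control D11 (9.34% ± 0.556). BGB-283 D4 and trametinib D4 were the only neighbours in that order whose libraries did not overlap, and the gap was narrow. Their nearest libraries were BGB-283 D4 replicate 3 at 11.15% and trametinib D4 replicate 3 at 11.04%. The Wilson intervals of these libraries, 9.57% to 12.97% and 9.62% to 12.64%, overlapped. How often other TRBV segments show such a gap was not tested.

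**Figure D2:**
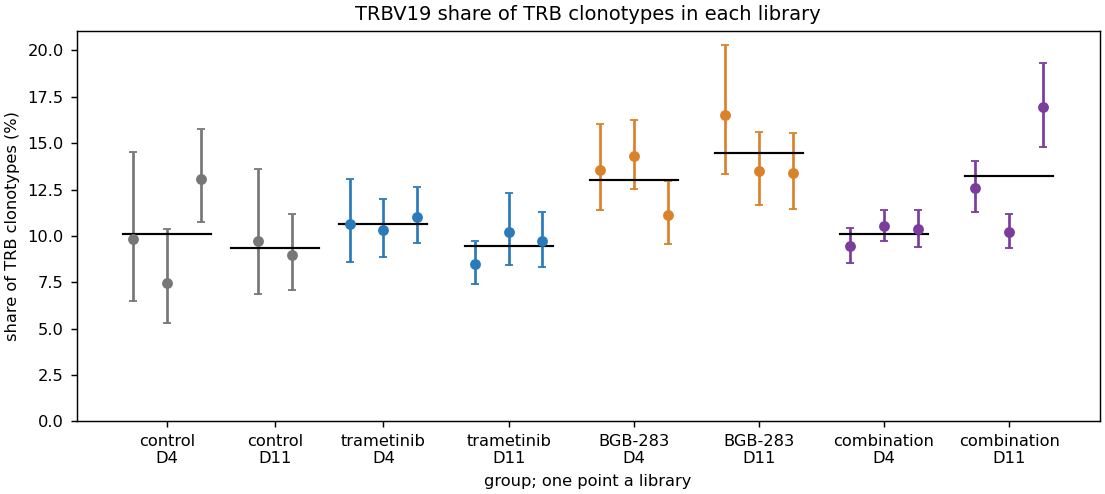
Points give the TRBV19 share of TRB clonotypes (%) in each of 23 libraries with 95% Wilson intervals, and black lines give group means. BGB-283 libraries lie between 11.2% and 16.5%, control libraries between 7.45% and 13.1%.

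The share of clonotypes rose with BGB-283 against control, from 9.80% ± 2.06 (SD, n = 5) to 13.7% ± 1.73 (n = 6), a log2 difference of 0.47 (SE 0.15, edgeR adjusted p = 0.0262). The background in that contrast was 15%: edgeR called 3 of 20 TRBV segments that passed the filter on low numbers, TRBV19 and TRBV26 upward and TRBV2 downward. The combination against control gave 0.22 (SE 0.14, edgeR adjusted p = 0.302; 15% of segments called) and trametinib against control 0.03 (SE 0.15, edgeR adjusted p = 0.960; 0% called). The combination against trametinib gave 0.19 (SE 0.11, edgeR adjusted p = 0.429; 0% called). The combination against BGB-283 gave -0.25 (SE 0.11, edgeR adjusted p = 0.125; 5% called), and D11 against D4 gave 0.03 (SE 0.09, edgeR adjusted p = 0.795; 0% called). Where edgeR called no segment, 6, 3 and 1 of 20 had an unadjusted p under 0.05 for trametinib against control, combination against trametinib and D11 against D4, and DESeq2 called 0 in each.

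The BGB-283 call was lost when 1 of 4 libraries was left out. Without the second control library at D4 the log2 difference was 0.37 (edgeR adjusted p = 0.129), and without the second control library at D11 it was 0.43 (edgeR adjusted p = 0.228). Leaving out the second BGB-283 library at D4 gave 0.43 (edgeR adjusted p = 0.0615), and leaving out the first at D11 also gave 0.43 (edgeR adjusted p = 0.0543). The call was lost too without the 2 shallowest control libraries (0.48, edgeR adjusted p = 0.0759) and with counts under 20 set to 0 (0.38, edgeR adjusted p = 0.105). It ended as well once clonotypes were removed that had 5% or less of the counts of a chain 1 residue away in the same library: the log2 difference was then 0.31 (edgeR adjusted p = 0.130). A wider set is the chains with 5% or less of the counts of the largest chain they are linked to by steps of 1 residue. These were 11.5% of TRBV19 entries in BGB-283 libraries (95 of 828), 8.31% in combination (181 of 2177), 5.47% in trametinib (46 of 841) and 5.02% in control libraries (12 of 239). Their part in the call beyond this removal was not tested. The difference between the combination and BGB-283 passed the test under that removal (-0.30, edgeR adjusted p = 0.0102), with counts under 20 set to 0 (-0.50, edgeR adjusted p = 0.00205) and without combination D11 replicate 3 (-0.34, edgeR adjusted p = 0.0161). Whether a treatment effect on the share of clonotypes differed between D4 and D11 was tested as an interaction. In the main fit none of the 3 drug groups differed from control in this way (edgeR adjusted p = 0.351 for the combination, 0.496 for BGB-283 and 0.994 for trametinib). Of the 20 segments, edgeR called 5% in the interaction of the combination, 0% in that of BGB-283 and 10% in that of trametinib. With counts under 20 set to 0, the interaction of the combination passed for TRBV19 (log2 0.95, SE 0.31, edgeR adjusted p = 0.0247). The shares of segments called in this paragraph are those of the main fit. How many other segments passed under the alternatives named here is not shown, so these passes cannot be set against a background.

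J partners were compared within each library, each clonotype counted once, between TRBV19 and all other TRB. TRBJ1-1 joined 11.4% ± 3.88 of TRBV19 clonotypes and 8.73% ± 1.11 of the others (SD, n = 23), higher in TRBV19 in 18 of 23 libraries (sign-flip permutation test, adjusted p = 0.00225). TRBJ1-6 joined 4.64% ± 2.14 against 2.70% ± 0.589, also higher in 18 of 23 (permutation, adjusted p = 0.00192). TRBJ2-3 was lower in TRBV19, with 7.19% ± 3.35 against 10.05% ± 1.26 (permutation, adjusted p = 0.00225), and TRBJ2-5 was lower with 8.03% ± 4.14 against 12.4% ± 1.95 (permutation, adjusted p = 0.00225). TRBJ2-5 was higher in TRBV19 in 2 of 23 libraries, and TRBJ2-3 in 6.

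These 4 of 12 TRBJ segments (33.3%) passed the test. The largest partner of TRBV19 was TRBJ2-7 (19.9% ± 4.41 against 20.2% ± 1.87, permutation adjusted p = 0.862), followed by TRBJ2-1 (16.2% ± 4.83 against 13.95% ± 1.67, permutation adjusted p = 0.0826). TRBJ2-4 (9.54% against 8.43%), TRBJ1-3 (5.50% against 4.33%), TRBJ1-2 (3.91% against 4.76%), TRBJ1-4 (6.92% against 6.86%), TRBJ2-2 (4.86% against 5.22%) and TRBJ1-5 (1.93% against 2.41%) did not pass either. The TRBJ1 cluster, which lies nearer to the V segments than the TRBJ2 cluster does, joined 34.3% ± 4.98 of TRBV19 clonotypes and 29.8% ± 1.62 of the others. The same test run on each of 18 segments listed in every library called 0 to 5 TRBJ per segment, with a median of 1.5 and 14.8% of all such tests called. TRBV17 had more than the 4 of TRBV19, and TRBV2 and TRBV3 had as many. Weighted by counts, none of the 12 TRBJ passed for TRBV19.

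**Figure D3:**
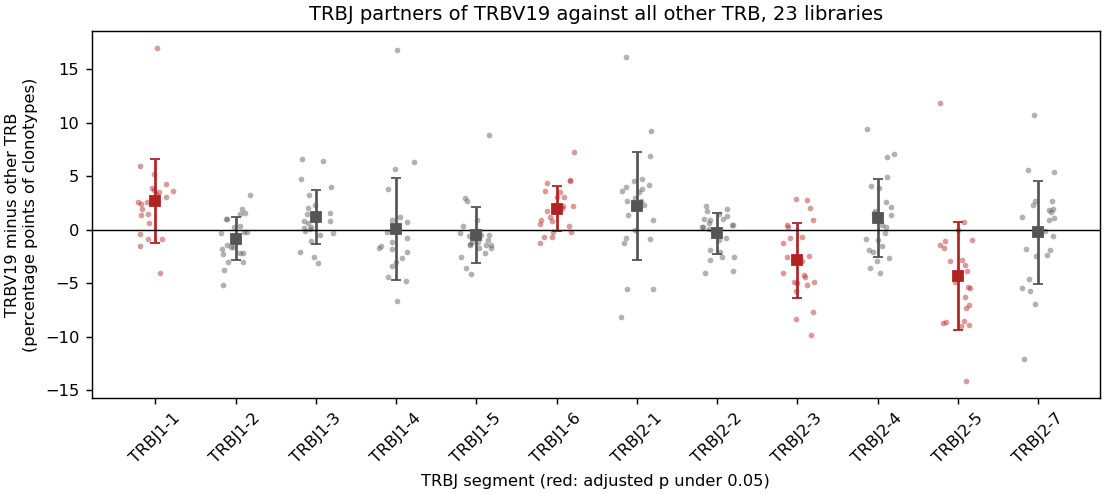
For each TRBJ segment, dots give the share of TRBV19 clonotypes minus the share of all other TRB clonotypes (percentage points) in each of 23 libraries, and squares with bars the mean and SD. TRBJ1-1 and TRBJ1-6 (red, mean above 0) and TRBJ2-3 and TRBJ2-5 (red, mean below 0) passed the permutation test.

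In 19 of 23 libraries the TRBJ with most TRBV19 counts was that of the largest TRBV19 clonotype. In the other 4, trametinib D11 replicate 1, BGB-283 D4 replicate 3, BGB-283 D11 replicate 2 and combination D11 replicate 2, TRBJ2-7 led although the largest clonotype used another TRBJ. The highest shares of a TRBJ were in libraries with a very large clone: TRBJ1-1 took 61.7% of TRBV19 counts in combination D11 replicate 3, TRBJ2-5 took 63.1% in BGB-283 D11 replicate 3, TRBJ1-4 took 52.7% in BGB-283 D11 replicate 1 and TRBJ2-7 66.4% in BGB-283 D4 replicate 1. Over all libraries TRBJ2-7 held 28.1% ± 15.6 of TRBV19 counts (SD, n = 23), more than its 19.9% of clonotypes.

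No TRBV19-TRBJ pair passed the test in any contrast. edgeR called 0 of 264 TRBV-TRBJ pairs, or 0%, in each of the 6 contrasts, with 14 to 48 pairs a contrast at an unadjusted p under 0.05, while DESeq2 called 5 to 61 pairs a contrast. The TRBV19 pairs nearest to the threshold were TRBJ1-4 with BGB-283 against control (log2 4.35, SE 1.44, edgeR adjusted p = 0.128), TRBJ1-1 at D11 against D4 (1.77, SE 0.64, edgeR adjusted p = 0.213) and TRBJ2-7 with BGB-283 against control (2.05, SE 0.94, edgeR adjusted p = 0.253). DESeq2 called the first of them (log2 4.63, DESeq2 adjusted p = 0.000357). Its values show how uneven it was: TRBV19 with TRBJ1-4 held 16.2% of TRB counts in the first BGB-283 library at D11, 3.01% in the second at D4 and 0.0219% to 0.275% in the other 4 BGB-283 libraries, against 0% to 0.297% in the controls. The log2 difference of this pair was 1.96 without the former library, 2.65 without the latter and 9.36 without control D11 replicate 2, each above an edgeR adjusted p of 0.05.

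CDR3 loops of TRBV19 were slightly shorter than those of other segments. The mean length per library was 13.82 ± 0.178 residues for TRBV19 and 13.99 ± 0.103 for all other TRB (SD, n = 23), a difference of -0.161 residues, shorter in 20 of 23 libraries (sign-flip permutation test, p = 0.00173). Both had their mode at 14 residues, with 32.5% of TRBV19 and 29.5% of other clonotypes. Loops of 16 residues made up 7.64% against 10.4% and loops of 17 residues 1.43% against 3.12%, while loops of 12 residues made up 10.9% against 9.52%. Of 18 segments compared in the same way, 12 differed from the rest, 6 shorter and 6 longer, and TRBV19 was at rank 12 of the 18 from the longest. Weighted by counts the difference was -0.0201 residues (sign-flip permutation test, p = 0.876).

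**Figure D4:**
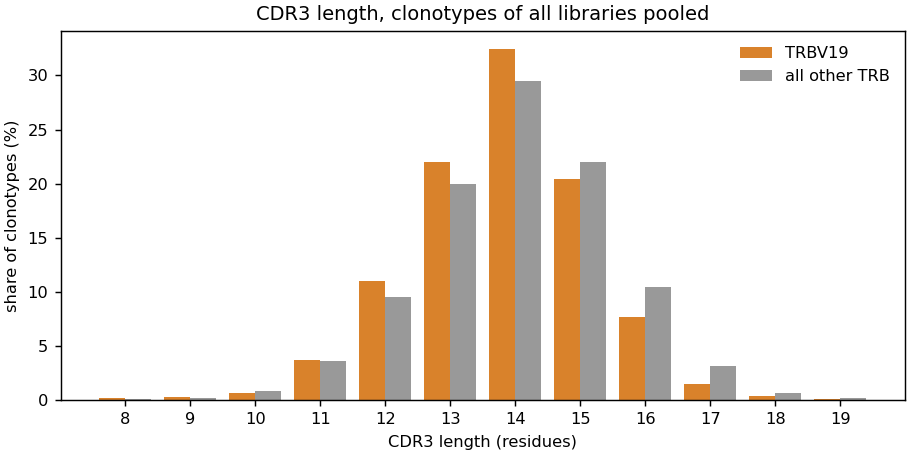
Bars give the share of clonotypes (%) at each CDR3 length in residues, for the 3847 TRBV19 clonotypes and for the 31542 of all other TRB. Both peak at 14 residues, and the TRBV19 bars are lower from 15 residues upward.

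Length did not differ by treatment beyond the spread. Mean TRBV19 length was 13.91 ± 0.204 residues in the 5 control libraries and 13.88 ± 0.158 with trametinib, 13.76 ± 0.201 with BGB-283 and 13.76 ± 0.144 with the combination (SD, n = 6 each). The largest differences, BGB-283 against control (-0.133 residues) and the combination against control (-0.132), both had an exact permutation adjusted p of 0.495. With 3 libraries against 3 or 2 in a day, the 6 contrasts rested on 200 or 400 arrangements of the libraries, and on 80000 for D11 against D4.

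Near-identical CDR3 were grouped into families: TRBV19 clonotypes of equal length that are linked by single-residue differences, or that differ only in J. Within libraries, 10.5% (trametinib D11 replicate 2) to 48.9% (combination D11 replicate 3) of TRBV19 clonotypes had such a neighbour, with a median of 24.1%. Among segments TRBV19 was at rank 4 by it over all entries (24.9%, after TRBV5, TRBV2 and TRBV16). Part of these families consist of 1 large clone and many small ones: in combination D11 replicate 3, the leading chain with 44752 counts had 29 neighbours 1 residue away, none above 223 counts, and in BGB-283 D11 replicate 3 the leader with 12210 counts had 12, none above 34. Other families hold several sizeable chains: in trametinib D11 replicate 3 the leader with 3184 counts stood beside a chain of 1164 counts. Over all libraries, 334 of 4085 TRBV19 entries (8.18%) were at 5% or less of the largest member of their family in that library, which placed TRBV19 eighth among the 24 segments.

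Over all libraries together, 2124 of the 3847 TRBV19 clonotypes (55.2%) fell into 385 families, the third highest share among segments, after TRBV16 (58.2%) and TRBV3 (55.7%). This share depends on the number of clonotypes of a segment, and all 3 are among the segments with most (4950 in TRBV16 and 3266 in TRBV3). The order did not follow that number throughout: TRBV29 had 53.4% with 4686 clonotypes and TRBV12-2 had 54.6% with 2216. How far the number sets the rank of TRBV19 was not tested. The family with most members had 134 chains of 14 residues, all with TRBJ2-1. It was listed in 21 libraries at a median of 0.137% of TRB counts where listed, and reached 8.23% in combination D11 replicate 3 through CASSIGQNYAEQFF, which made up 75.6% of its counts. Smaller families were a TRBJ1-1 family of 76 chains of 13 residues led by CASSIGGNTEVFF, a family of 73 chains around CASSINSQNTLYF of which 60 use TRBJ2-4, and one of 50 chains of 14 residues led by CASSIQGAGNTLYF. Each was listed in 21 libraries, at medians of 0.0953%, 0.234% and 0.0681% of TRB counts where listed.

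The second family was spread most evenly. Its 122 chains of 14 residues, all with TRBJ2-7, were listed in all 23 libraries at 1.24% ± 1.32 of TRB counts (SD), with a minimum of 0.135% in control D11 replicate 1 and a maximum of 4.67% in trametinib D4 replicate 3. Its most abundant member made up 16.2% of its counts, and 24 of its members were listed in more than 1 library. Its 6 leading members include the Thr/Gly (7011 counts over all libraries), Ser/Gly (5614 counts) and Thr/Ala chains (4149 counts), and the other 3 read as follows.
7970 counts: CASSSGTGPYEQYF
6184 counts: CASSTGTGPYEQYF
3714 counts: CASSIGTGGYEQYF

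These 6 chains differ at the fifth and the ninth residue and share the rest. The pattern was picked after their values were seen, so it is described and not tested. In all, 26 TRBV19 clonotypes fit it (CASS, any residue, GTG, any residue, YEQYF, with TRBJ2-7), and 21 of 23 libraries listed at least 1. They were 10.2% of the 255 TRBV19 clonotypes with TRBJ2-7 and 14 residues, where every other segment had 9.09% (TRBV13-3, 4 of 44) or less. By counts they held 1.02% of TRB on average with TRBV19 and 0.0205% or less with any other segment. The ninth residue was G in 9 of the 26, A, P or V in 4 each, and L, S, D or E in the rest.

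The GTG chains held 0.807%, 0.144% and 1.12% of TRB counts in control D4 and 0% and 0.868% in control D11. With trametinib they held 0.225%, 0.562% and 4.30% at D4 and 0.159%, 0.854% and 4.02% at D11. With BGB-283 they held 0.219%, 0.872% and 3.79% at D4 and 0.180%, 0% and 1.06% at D11, and with the combination 0.0383%, 0.441% and 2.40% at D4 and 0.120%, 1.199% and 0.196% at D11. The 4 highest libraries were all replicate 3 of their group, and replicate 3 was the highest in 6 of the 7 groups that have one, all but combination D11. No source used here says what a replicate number stands for. The treatments overlapped throughout.

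Of the 3847 TRBV19 clonotypes, 162 (4.21%) were listed in 2 or more libraries, against 3.77% of the other TRB clonotypes. At 5 or more libraries the shares were 0.260% (10 clonotypes) and 0.0856% (27), and at 8 or more 0.0520% (2) and 0.0190% (6). Among all 35389 TRB clonotypes, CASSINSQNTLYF with TRBV19 had the second place by number of libraries. It was listed in 13 libraries and in all 8 groups: 2 control, 3 trametinib, 4 BGB-283 and 4 combination libraries. Where listed, it held 0.0477% to 2.73% of TRB counts with a median of 0.229%, and it exceeded 1% only in BGB-283 D4 replicate 3 (2.73%) and combination D4 replicate 2 (1.11%).

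The other shared chains were listed in fewer libraries, and 2 of them had a higher median share where listed. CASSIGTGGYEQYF held 0.0200% to 0.870% in its 8 libraries, 2 of each treatment. The Thr/Gly chain held 0.00323% to 2.06% in 6 libraries, with a median of 0.682%. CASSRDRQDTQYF with TRBJ2-5 had a median of 0.507% in 5 libraries of 5 groups, up to 1.08% in control D4 replicate 1. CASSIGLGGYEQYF, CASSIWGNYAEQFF, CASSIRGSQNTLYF and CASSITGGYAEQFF were listed in 5 or 6 libraries at medians of 0.0084% to 0.0209%. The Ser/Ala chain (median 0.0857%) and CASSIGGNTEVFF (0.140%) lay between. Listing depends on depth, which differs between libraries, so these numbers were not compared between treatments.

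**Figure D5:**
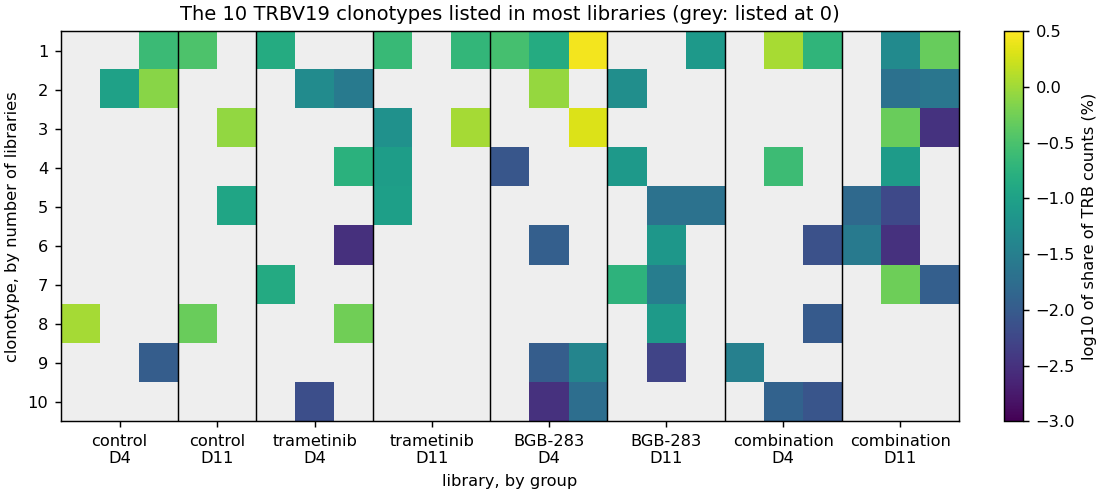
Rows are the 10 TRBV19 clonotypes listed in most libraries, from 13 libraries (row 1) down to 5, and columns the 23 libraries by group. Colour gives log10 of the share of TRB counts (%), and grey marks a clonotype listed at 0. Row 1 is the only one present in all 8 groups.

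Ranked by Spearman's rho, the segment whose share of TRB counts moved most like that of TRBV19 over the 23 libraries was TRBV23 (Spearman rho 0.54, Pearson r 0.67), a rarely used segment with a median of 0.174% of TRB counts. Both were highest in combination D11 replicate 3, where TRBV23 held 9.17%. Without the libraries farthest from the median TRBV19 share, combination D11 replicate 3 and BGB-283 D11 replicate 1, rho was 0.48 and r 0.59. TRBV29 (rho 0.29, r 0.16) and TRBV24 (rho 0.19, r 0.16) came next by rho. By r, TRBV22 (0.38) and TRBV5 (0.33) followed TRBV23. These are the highest of 23 values of each measure, and shares of 1 library sum to a fixed total.

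TRBV19 belongs with TRBV29, TRBV13-3 and TRBV17 to the segments known to respond to Mls-1a. All 4 were present in every treatment group. In the controls they held 5.71% ± 3.05, 3.81% ± 2.07, 2.13% ± 0.727 and 4.30% ± 2.88 of TRB counts (SD, n = 5). With BGB-283 the values were 14.7% ± 8.48, 6.16% ± 5.27, 1.96% ± 1.22 and 3.35% ± 2.40 (n = 6). By counts, edgeR called none of the 4 in any of the 6 contrasts. The median log2 difference of the 4 was 0.33 for BGB-283 against control, 0.61 for the combination and 0.81 for trametinib, beside medians of -0.01, 0.30 and 0.32 over all 24 segments. By clonotypes, TRBV19 with BGB-283 was the only one of the 4 called in those 6 contrasts, and the median over the 4 was then -0.06, beside -0.05 over the 20 segments tested. In the interactions of treatment and day, edgeR called TRBV17 by clonotypes: its difference from control was lower at D11 than at D4, with log2 values (D11 minus D4) of -1.32 for the combination (SE 0.32, edgeR adjusted p = 0.00468) and -1.10 for trametinib (SE 0.33, edgeR adjusted p = 0.0380).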

How the data were processed

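The authors deposited 1 table of whole-number counts, unscaled, with a row for each chain type, V, J and CDR3 protein sequence. Per the labels' protocols, libraries were made from total RNA with a QIAseq Immune Repertoire kit, after extraction with AllPrep and mirVana kits. Per the submitters' processing notes the build is GRCh38, a human assembly, although the samples are mouse. No source used here names the aligner, the caller or filters, or says whether a count is a read or a molecule. The lowest listed value is 3, so a clonotype at 0 is given as listed at 0.

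Of 35571 TRB rows, 182 with an unresolved residue (0.0421% of TRB counts) were left out. All 24 TRBV and 12 TRBJ names matched symbols of the RefSeq mouse annotation, and no coordinates were used. No pair of libraries was identical, and the most TRB clonotypes that 2 libraries shared was 66.

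Counts, clonotype numbers and TRBV-TRBJ pairs were tested with edgeR 4.0.16 (quasi-likelihood, 8 groups, library size the TRB total, no TMM factors, filterByExpr, Benjamini-Hochberg over all features, threshold 0.05) in R 4.3.3. Treatment contrasts are the mean of the D4 and D11 differences. J partners and length were tested with two-sided sign-flip permutation (100000 resamples), and per-library values with exact permutation within day or treatment. The fits and permutation tests were tested on simulated data. In counts simulated for the combination against control, edgeR recovered 4 of 4 changed segments of 24 by counts (1 false call), 4 of 4 of 20 by clonotypes (2 false calls) and 39 of 39 changed pairs of 263 (2 false calls). The planted changes of segments were larger than any TRBV19 difference in share reported here. For counts and pairs the simulated spread between libraries was below that fitted to the real data. The simulation therefore cannot show the power to find differences of the observed size. By clonotypes, the kind of fit that gave the BGB-283 call, edgeR made 2 false calls beside 4 true ones at the threshold of 0.05. Families, shared clonotypes and CDR3 starts are described without a test.

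Named were all TRBJ partners, the 3 TRBV19-TRBJ pairs with the smallest p, the largest TRBV19 clonotype of each library, the 10 listed in most libraries, the 5 largest families, the 3 most alike segments and the Mls-1a list. TRBV19 and these lists were chosen with earlier results of these data known. CDR3 over 14 residues are not printed. Alternatives were DESeq2 1.42.0, TMM factors, no filter on low counts, a replicate block, counts under 20 set to 0, estimated molecules (a count divided by 20, rounded up), each library left out, the 2 shallowest control libraries (32534 and 34553 TRB counts) left out and other family rules. The removal of small neighbours was added after the data were seen.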

Additional observations from a re-analysis of the deposited data

Results flagged for a closer look

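Chance marks about 1 in 20 groups by the rule used here, which asks whether 1 library lies far from the others of its treatment. Among the 6 combination libraries, D4 and D11 together, combination D11 replicate 3 stood apart in the TRBV19 share of TRB counts, at 40.5% against 3.89% to 12.3% in the other 5. The same library stood apart in mean TRBV19 CDR3 length, at 13.49 residues against 13.75 to 13.90. In that library 24.1% of TRB counts came from 1 chain of 12 residues, and 67 of its 182 TRBV19 clonotypes were at 5% or less of the largest chain of their family. Their part in the mean length of that library was not tested separately.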

How the results depend on the processing

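The share of TRB counts kept its direction in all 6 contrasts under every alternative other than leaving out a library, and no contrast passed the test. Over single libraries left out, the log2 difference ran from 0.48 to 1.38 for the combination against control, 0.46 to 1.03 for trametinib, 0.92 to 1.67 for BGB-283, -0.21 to 0.56 for the combination against trametinib, -0.85 to 0.13 for the combination against BGB-283 and 0.27 to 0.70 for D11 against D4. For the share of clonotypes these ranges were 0.12 to 0.38, -0.0722 to 0.19, 0.37 to 0.63, 0.10 to 0.28, -0.34 to -0.16 and -0.0201 to 0.11.

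With counts under 20 set to 0, the share of clonotypes gave -0.12 for the combination and -0.0472 for trametinib against control, 0.38 (adjusted p = 0.105) for BGB-283 against control, -0.0682 for the combination against trametinib and -0.50 (adjusted p = 0.00205) against BGB-283. With small neighbours removed, an alternative chosen after seeing the data, it gave -0.0942 for trametinib and 0.31 for BGB-283 against control, -0.30 for the combination against BGB-283 and -0.0214 for D11 against D4. Without the 2 shallowest control libraries BGB-283 gave 0.48 (adjusted p = 0.0759), with the 3 controls left. The cause of these changes was not tested.

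DESeq2 called 1 TRBV19-TRBJ pair, and with any library left out edgeR called 0 (0 to 0). Weighted by counts, 0 TRBJ passed, TRBJ2-1 turned to -1.15 and TRBJ2-7 to 7.64 percentage points, and the length difference to other TRB was -0.0201 residues. TRBJ1-4 turned to -0.0884 by group means and to -0.29 with small neighbours removed. With libraries left out, 4 to 6 TRBJ passed, and the length difference ran from -0.185 to -0.148.

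Length by treatment, trametinib against control, was 0.0148 weighted by counts and 0.0157 with counts under 20 set to 0. That setting gave -0.0163 for the combination against BGB-283 and 0.00054 for D11 against D4. With libraries left out, lengths ran from -0.209 to -0.0773 (combination against control), -0.0925 to 0.0372 (trametinib), -0.210 to -0.0880 (BGB-283), -0.170 to -0.0613 (combination against trametinib), -0.0448 to 0.0628 (against BGB-283) and -0.114 to -0.0450 (D11 against D4). For the share of the largest clonotype they ran from -1.51 to 13.0, -8.54 to 5.93, 6.62 to 21.3, 0.679 to 13.4, -15.6 to -1.73 and -3.08 to 4.26, and D11 against D4 gave -0.280 with counts under 20 set to 0. The median share of clonotypes in a family was 13.3% with counts under 20 set to 0 and 41.3% with 2 residues allowed.

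The replicate numbers pair no samples by any label. Same-numbered libraries correlated above 0.1 throughout in 3 of 28 pairs of groups (mean r -0.02). With a replicate block, BGB-283 against control gave 0.45 for the share of clonotypes (adjusted p = 0.0355) and the share of counts gave no call. The block turned the largest-clonotype share at D11 against D4 to -0.314 and changed no call. Depth limits the controls most, where 21 to 91 TRBV19 clonotypes were listed a library.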
